A study of Mus musculus with 5 samples.

Results

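Oligodendrocyte genes held a large share of the reads in libraries that were prepared from astrocytes of the mouse amygdala. The genes described here are 31 markers of myelin and of the oligodendrocyte that makes it. They were chosen by name, as the rows of the deposited count table whose symbol is on a list of 31, and all 31 were found among its 35976 genes. Both groups were CCR2-DTR mice of genotype Ccr2::CreERT2/+;DTR/+, in which tamoxifen-activated Cre from the Ccr2 locus switches on the diphtheria toxin receptor in cells that use Ccr2, such as inflammatory monocytes. All mice received tamoxifen, 18 days of tube restraint, fear conditioning and extinction, and either saline or DTx (diphtheria toxin) during the restraint, so no group was unstressed. Cells of the papain-digested amygdala were selected with magnetic beads against ACSA-2, an epitope of the astrocyte protein ATP1B2, and 5 ng of RNA from each sample went into a library. The labels give no age, strain or sex. The comparison is between 2 saline libraries and 3 DTx libraries. The table has 1 more column, named as a control, that matches none of the labelled samples and was not used, so each saline mean, SD and fold change rests on 2 control libraries. Since the labels leave it unsaid whether each numbered sample came from its own mouse, p-values here reflect only the spread among these libraries.

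Oligodendrocytes wrap axons of the central nervous system in stacked membrane. Myelin basic protein holds the cytoplasmic faces of that membrane together, and enzymes supply its characteristic galactolipids. Surface proteins such as MAG and contactin 2 take part in its contact with the axon, contactin 2 beside the nodes of Ranvier. The transcription factors OLIG2 and SOX10 mark the whole lineage, and MYRF is required for the switch from precursor to myelinating cell. Several members have other known sources in brain, among them choroid plexus (Enpp2, Trf), astrocytes (Car2) and the arachnoid (Cldn11).

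Library totals ran from 15961220 to 23720299 counts. Ccr2, the gene that drives Cre, had 0 counts in both saline libraries against 54, 4 and 4 counts in DTx 5A, 6A and 7A. That direction is opposite to a depletion of cells that use Ccr2, but most of the counts lie in DTx 5A. So few counts can check neither the depletion nor the labels, and the libraries are named as labelled. Xist stood at 172 and 129 CPM (counts scaled to a common library size) in the saline libraries and at most 0.158 CPM in the DTx libraries, and the Y-linked gene Ddx3y at up to 0.184 CPM and at 116 to 135 CPM. State of the sex chromosomes and treatment therefore coincided in 5 of 5 libraries and cannot be told apart in any result below. No member lies on chromosome X or Y. The libraries most alike by a chi-square test of all counts were DTx 5A with DTx 6A (14.25 per degree of freedom) and saline replicate 2 with DTx 7A (17.68), while the saline pair stood at 59.97.

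The 31 genes together took 6.34% of all counts in saline replicate 1 (95% Wilson interval 6.33 to 6.35) and 8.62% in saline replicate 2 (8.61 to 8.63). In the DTx libraries they took 4.59% in 5A (4.58 to 4.60), 4.55% in 6A (4.54 to 4.56) and 8.32% in 7A (8.31 to 8.33). These intervals cover counting error only, since the reads carry no stated molecular identifiers. Library 7A lay between the saline libraries, and 5A and 6A lay below both, so the groups overlapped at 7.48 ± 1.61% (SD, n = 2) in saline and 5.82 ± 2.16% (SD, n = 3) in DTx. Mbp alone gave between 47.7% and 54.6% of the members' counts in a library. Without it the saline libraries had 3.31% and 4.18%, and DTx 5A, 6A and 7A had 2.34%, 2.16% and 3.78%, and the order of the libraries was the same. In bulk RNA, fewer cells of a type and less RNA per cell cannot be told apart.

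Levels are given as CPM after TMM scaling, a correction for differences in library composition. Mbp, the myelin basic protein gene, had more counts than any other gene in saline replicate 2 and DTx 7A and ranked 2 in the other 3 libraries. Per kilobase of exon its mean over the libraries was 3993 CPM, rank 5 of the 26705 genes with a length. Trf came next among the members at 1601 CPM per kilobase, then Mobp at 998, Plekhb1 at 890, Cnp at 781 and Car2 at 777, and 9 members ranked within the top 100. The lowest per kilobase were Gal3st1 at 7.66, Myrf at 14.4 and Ninj2 at 16.1 CPM. The median member stood at 138 CPM per kilobase, against 3.51 for all genes tested. For scale, the astrocyte marker Aldoc stood at 2135 CPM per kilobase. The glutamate transporter gene Slc1a2, also an astrocyte marker, stood at 408, and Atp1b2, which encodes the bead target, at 1231.

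**Figure D1:**
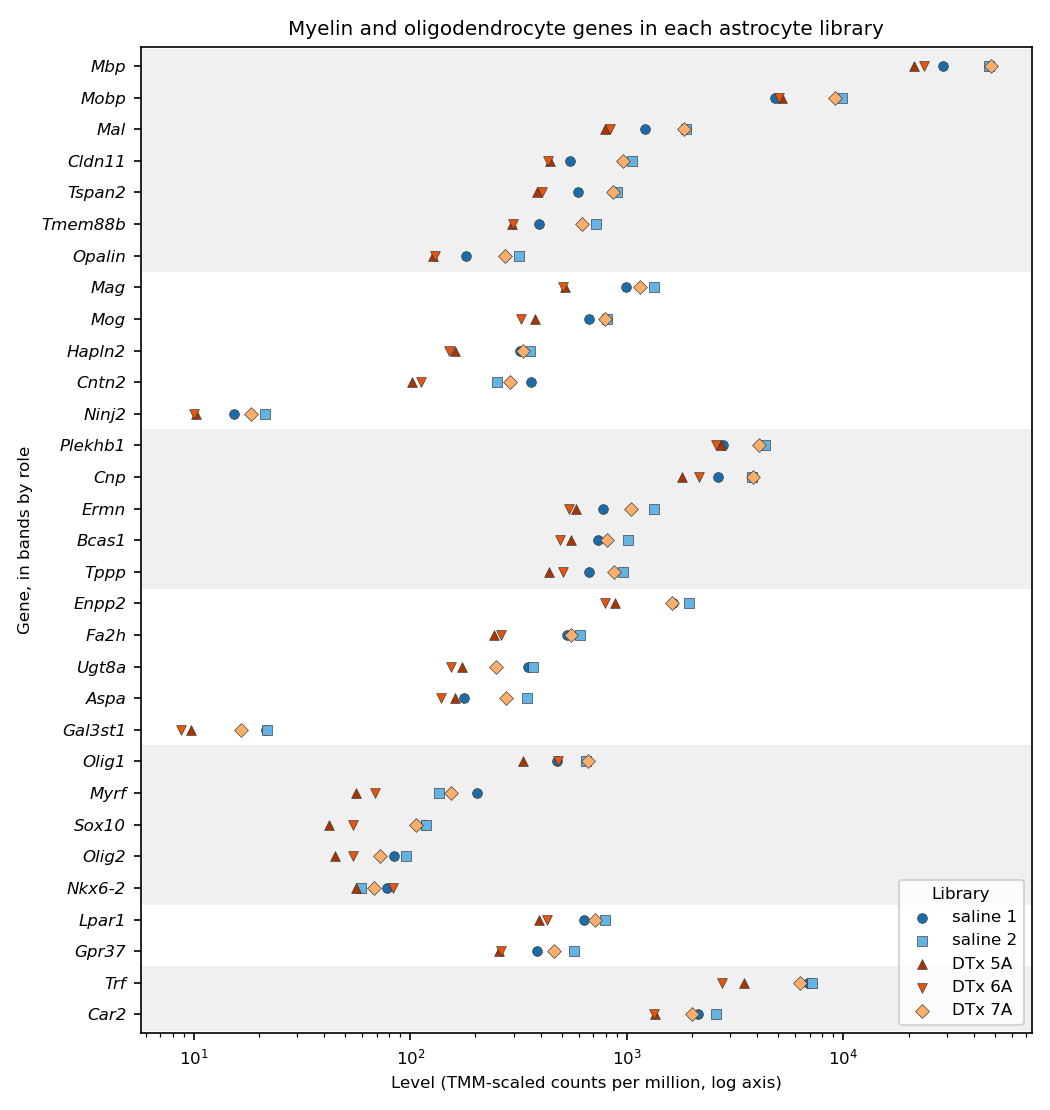
Level of each of the 31 genes (TMM-scaled CPM, log axis) in the 2 saline (blue) and 3 DTx (orange) libraries, with genes in bands by role. DTx 5A and 6A are the lowest libraries for 28 genes, and DTx 7A lies with the saline libraries.

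Most members were low in the same pair of libraries. Relative to each gene's own mean over the 5 libraries, the median member stood at 0.03 in saline replicate 1 and 0.48 in saline replicate 2 on the log2 scale. The corresponding medians were -0.65, -0.65 and 0.32 in DTx 5A, 6A and 7A. DTx 5A and 6A were the lowest libraries for 28 of 31 members, or 90.3%, against 17.7% of the 15532 genes tested. This pattern was noticed after the values were seen. Among the members the exceptions were Mobp, which was lowest in saline replicate 1, and the transcription factor genes Olig1 and Nkx6-2. The full order of the 5 libraries was less uniform, with 9 different orders, of which the most frequent were held by 9, 8 and 5 members. Saline replicate 2 was the highest library for 25 members, DTx 7A for 3, saline replicate 1 for 2 and DTx 6A for 1. DTx 7A lay between the saline libraries for 21 members, below both for 7 and above both for 3.

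**Figure D2:**
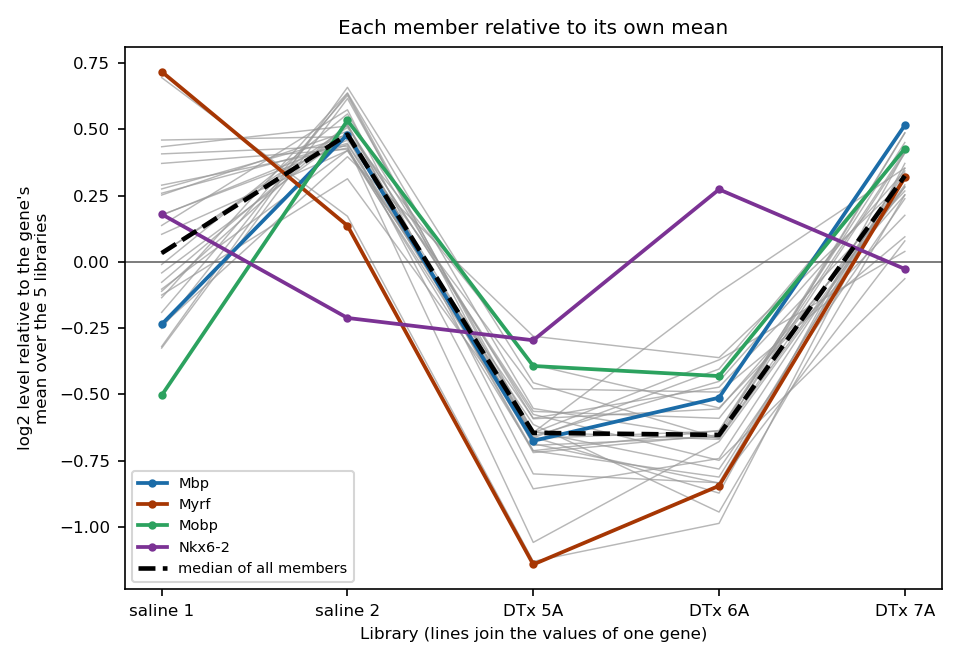
log2 level of each member relative to its mean over the 5 libraries, by library, with 1 line per gene, 4 genes in colour and the median of all 31 dashed. The median is -0.65 in both DTx 5A and 6A and 0.32 in DTx 7A, while Nkx6-2 is highest in DTx 6A.

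No member passed the comparison of DTx with saline. In edgeR's quasi-likelihood test 0 of 31 had an adjusted p under 0.05, where the share over all genes tested was 0.0322% (5 of 15532), and 0.00644% for genes lower in DTx. All 31 passed the filter on low counts. The log2 fold changes of 30 members were below 0 (31 with RLE or total-count scaling, where Nkx6-2 changed sign), against 49.7% of all genes tested. Their median was -0.52 against 0.00 for all genes. An unadjusted p under 0.05 was reached by 4 members (12.9%), all lower in DTx, against 6.28% of all genes in either direction and 2% lower in DTx. Values of the groups did not overlap for 7 members, all lower in DTx, or 22.6% against a background of 9%. For the opposite direction the members gave 0 against 12.1%. The 95% interval of the fold change included 0 for 27 members.

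**Figure D3:**
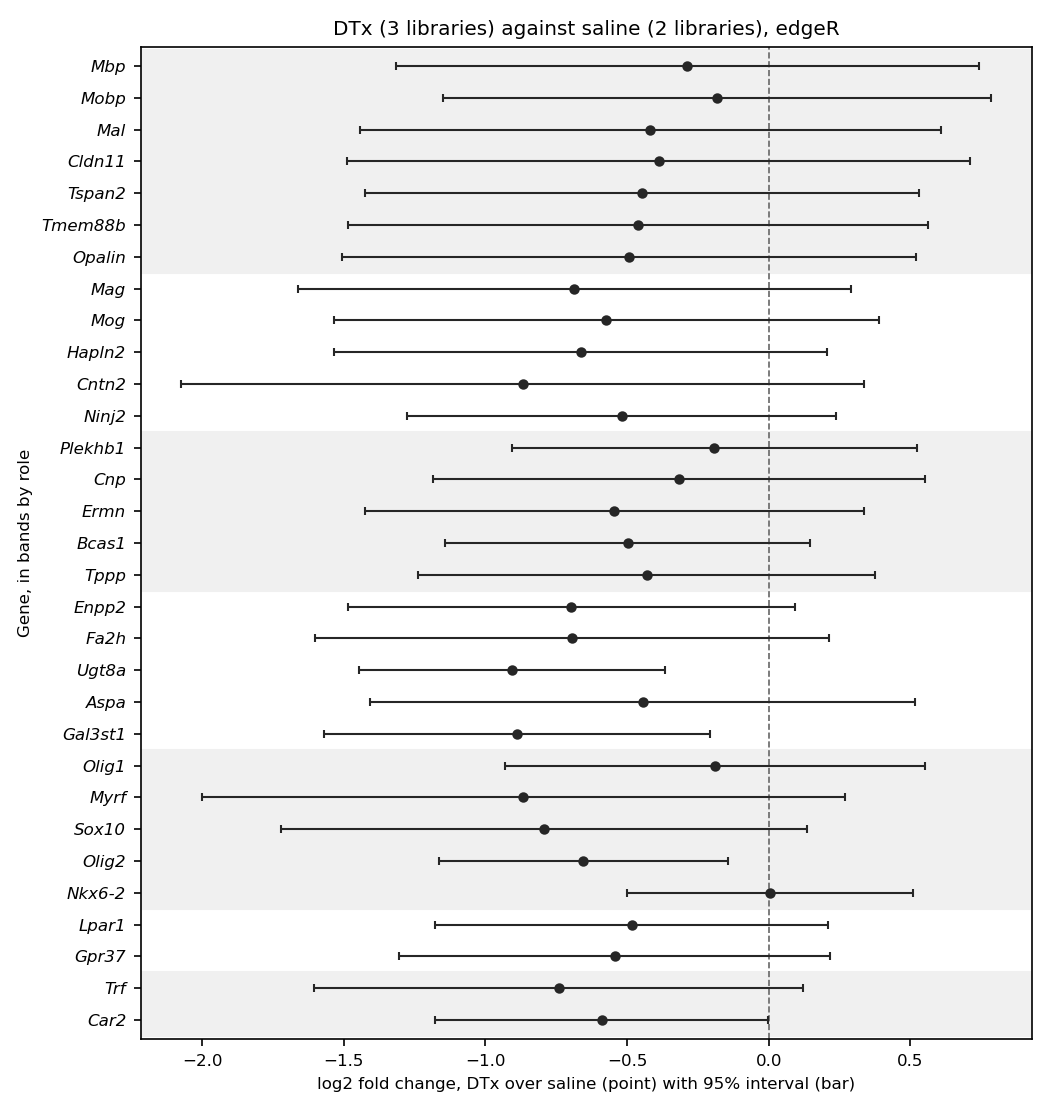
Fold change of each member, DTx over saline, on the log2 scale (points) with 95% intervals from the edgeR fit (bars) for 3 DTx and 2 saline libraries. Of the 31 points 30 lie below 0 (31 with RLE or total-count scaling), and the intervals of Ugt8a, Gal3st1, Olig2 and Car2 do not include it.

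DTx library 7A carried much of that spread. This library lay with the saline libraries for most members, so leaving it out widens the gap between the groups. Without it the median log2 fold change of the members was -0.91, and 26 of 31 members had an unadjusted p under 0.05, all lower in DTx, against 13% of all genes in either direction and 6.92% lower in DTx. The adjusted p over all genes was then at least 0.0738, and 0 members were called. Without DTx 5A or 6A the median was -0.40 or -0.37. In each of these fits 2 of 31 members had an unadjusted p under 0.05 in edgeR, all lower in DTx. The counts over all genes were 556 of 15018 without 5A and 468 of 15313 without 6A. Without saline replicate 1 the median was -0.73, with 30 of 31 members below 0. Without saline replicate 2 it was -0.25, with 24 of 31 members below 0.

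Enzymes of myelin lipids included the members with the smallest p. Ugt8a (GRCm38 chromosome 3, 125865271 to 125938619) makes galactosylceramide, the main glycolipid of myelin. Its level was 351 and 370.2 CPM in saline replicates 1 and 2, and 174, 154 and 248 CPM under DTx 5A, 6A and 7A. All DTx libraries lay below both saline libraries, and the saline libraries were close to each other. The log2 fold change was -0.91 ± 0.23 (SE, 95% interval -1.45 to -0.37), with an edgeR adjusted p of 0.761. DESeq2 called Ugt8a with an adjusted p of 0.0238, the 1 member it called, where it called 0.729% of genes, and limma-voom called 0 members, with 4 at an unadjusted p under 0.05. Gal3st1 adds the sulfate that turns galactosylceramide into sulfatide. It stood at 21.5 and 21.7 CPM under saline and 9.71, 8.76 and 16.5 CPM under DTx, again without overlap, with a log2 fold change of -0.89 ± 0.28 (SE, edgeR adjusted p = 0.789).

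Enpp2, which encodes autotaxin, the secreted enzyme that makes lysophosphatidic acid, stood at 1631 and 1927 CPM under saline and 879, 796 and 1615 CPM under DTx. Its groups did not overlap by a narrow margin between DTx 7A and saline replicate 1. Fa2h, which hydroxylates the fatty acids of myelin galactolipids, stood at 531 and 609 CPM under saline and 243, 263 and 551 CPM under DTx, with DTx 7A between the saline libraries. The log2 fold changes of Enpp2 and Fa2h were both -0.70, with SE of 0.33 and 0.37 and an edgeR adjusted p of 0.797 for each. Aspa, which splits N-acetylaspartate and so frees acetate for lipid synthesis, ranged from 139 CPM under DTx 6A to 347 CPM in saline replicate 2.

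Genes of compact myelin and its membrane held most of the counts and overlapped between groups in every case. Mbp stood at 28708 and 47168 CPM under saline and 21170.1, 23698 and 48326 CPM under DTx 5A, 6A and 7A. DTx 7A was above both saline libraries, and the log2 fold change was -0.29 ± 0.43 (SE, edgeR adjusted p = 0.906). Mobp (chromosome 9, 120149707 to 120181484), an abundant basic protein of the cytoplasmic face of myelin, stood at 4819 and 9891 CPM under saline and 5204, 5068 and 9189 CPM under DTx. It was the 1 member lowest in saline replicate 1, and the saline libraries differed more from each other than the group means did. Opalin, a glycoprotein of the oligodendrocyte surface, stood at 180.5 and 318 CPM under saline and 127, 130.3 and 274 CPM under DTx.

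Tspan2, a tetraspanin of oligodendrocytes, stood at 596 and 901 CPM under saline and 384, 405 and 859 CPM under DTx. The remaining 3 of the 7 genes in this role followed the same order of libraries apart from DTx 5A and 6A, which were close to each other. Mal, a proteolipid that sorts membrane cargo, ranged from 796 to 1875 CPM. Cldn11, the claudin of the tight junctions within myelin, ranged from 431 to 1051 CPM, and Tmem88b, a transmembrane protein, from 293 to 723 CPM. Over the 7 genes the log2 fold changes ran from -0.49 to -0.18.

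Genes of the myelin surface and the node had log2 fold changes of -0.87 to -0.52, with overlapping groups for all 5. Mag (chromosome 7, 30899176 to 30914873), the adhesion protein that faces the axon, stood at 989 and 1339 CPM under saline and 517, 505 and 1149 CPM under DTx. The DTx 5A and 6A values were close to each other, and DTx 7A lay between the saline libraries. Mog (chromosome 17, 37010743 to 37023398), a protein of the outermost myelin surface and a well-known autoantigen, stood at 671 and 807 CPM under saline and 375, 324 and 791 CPM under DTx, with the same overlap. Their log2 fold changes were -0.69 ± 0.40 and -0.57 ± 0.40 (SE), with edgeR adjusted p of 0.803 and 0.816.

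Cntn2, a contactin that joins glia to axon beside the node and is also made by neurons, stood at 361 and 251 CPM under saline and 102, 113 and 289 CPM under DTx. It was highest in saline replicate 1, unlike most members, and its ratio of highest to lowest library was 3.54. Hapln2, a link protein of the matrix at the node, stood at 322 and 355 CPM under saline and 161, 150.3 and 330.3 CPM under DTx. Ninj2, a nerve-injury adhesion protein, was the lowest of the 5 genes at 10.004 to 21.4 CPM.

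Cytoplasmic and cytoskeletal members had log2 fold changes of -0.55 to -0.19, and their groups overlapped in all 5 cases. Cnp, the cyclic nucleotide phosphodiesterase that keeps cytoplasmic channels open within myelin, stood at 2647 and 3804 CPM under saline and 1794, 2148 and 3823 CPM under DTx. Plekhb1, a pleckstrin homology protein, stood at 2795 and 4348 CPM under saline and 2719, 2571 and 4083 CPM under DTx. Saline replicate 1 lay close to DTx 5A and 6A for Plekhb1, and its log2 fold change was -0.19 ± 0.30 (SE, edgeR adjusted p = 0.911). Bcas1, a marker of oligodendrocytes that are forming myelin, stood at 736 and 1009 CPM under saline and 549.8, 491 and 813 CPM under DTx, and Ermn, a cytoskeletal protein of late differentiation, at 779 and 1331 CPM and at 583, 539 and 1047 CPM. For both, DTx 7A lay between the saline libraries. Tppp, a microtubule-organising protein of oligodendrocytes, ranged from 438 to 963 CPM. Reads of Bcas1 are uncertain, because 12.56% of its exon bases overlap genes on the opposite strand and the labels do not state whether counting used the strand.

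The 5 transcription factor genes did not share an order of libraries. Myrf stood at 203 and 136 CPM under saline and 55.9, 68.7 and 154 CPM under DTx 5A, 6A and 7A, with a ratio of highest to lowest library of 3.63, the largest among the members. Sox10 (chromosome 15, 79154908 to 79165240) stood at 116 and 118 CPM under saline and 42.0, 54.6 and 106 CPM under DTx. Its groups did not overlap, the saline libraries nearly coincided and DTx 7A lay just under them, for a log2 fold change of -0.79 ± 0.38 (SE, edgeR adjusted p = 0.797). Olig2 (chromosome 16, 91225457 to 91228677) stood at 84.0 and 95.7 CPM under saline and 44.9, 54.3 and 72.1 CPM under DTx. All DTx libraries again lay below both saline libraries, and the log2 fold change was -0.65 ± 0.21 (SE, edgeR adjusted p = 0.789).

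For Olig1 and Nkx6-2, DTx 5A and 6A were not the 2 lowest libraries. Olig1, which lies beside Olig2 on chromosome 16 (91269772 to 91271933), stood at 477 and 646 CPM under saline and 333, 480.2 and 664 CPM under DTx. DTx 6A thus matched saline replicate 1, and the log2 fold change was -0.19 ± 0.31 (SE, edgeR adjusted p = 0.917). Nkx6-2, a homeobox factor of myelinating oligodendrocytes, stood at 78.0 and 59.5 CPM under saline and 56.1, 83.3 and 67.6 CPM under DTx. The groups overlapped fully, and the 95% interval of its log2 fold change, whose sign differed between scalings, ran from -0.50 to 0.51. Opposite-strand genes share 7.26% of the exon bases of Olig1 and 12.9% of those of Nkx6-2, so reads of both are uncertain.

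Of the receptors, Lpar1, which binds lysophosphatidic acid, stood at 636 and 791 CPM under saline and 393, 426 and 712 CPM under DTx. Gpr37, a receptor that restrains oligodendrocyte differentiation, stood at 384 and 569 CPM under saline and 256, 263 and 461 CPM under DTx. DTx 7A lay between the saline libraries for both, and the log2 fold changes were -0.48 ± 0.29 and -0.54 ± 0.32 (SE, edgeR adjusted p = 0.803 for each). Trf (chromosome 9, 103204001 to 103230444) encodes transferrin, the iron carrier that oligodendrocytes make in large amounts. It stood at 6874 and 7135 CPM under saline and 3473, 2762 and 6329.6 CPM under DTx, with no overlap, and the log2 fold change was -0.74 ± 0.36 (SE, edgeR adjusted p = 0.797). Car2, the cytosolic carbonic anhydrase, stood at 2124 and 2585 CPM under saline and 1349, 1338 and 2008 CPM under DTx. Its groups did not overlap either, with a log2 fold change of -0.59 ± 0.25 (SE, edgeR adjusted p = 0.789). A gene model on the same strand, Gm20425, shares 63.49% of the exon bases of Trf in GENCODE, but no counted gene carries that symbol. Of the other members, opposite-strand genes share 6.52% of the exon bases of Ermn, 5.97% of Enpp2, 4.23% of Cnp and 1.85% of Tspan2.

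To separate the total amount of oligodendrocyte RNA from its composition, each member's counts were also set against those of the other 30. The highest ratio was in saline replicate 1 for 17 members, in saline replicate 2 for 5, in DTx 6A for 4, in DTx 5A for 3 and in DTx 7A for 2. Groups did not overlap for 9 members, all lower in DTx, namely Tspan2, Mag, Hapln2, Ugt8a, Fa2h, Gal3st1, Enpp2, Sox10 and Gpr37. Over all 15532 genes tested, with each gene that is no member set against the counts of all 31, the groups did not overlap with DTx lower for 0.805% and with DTx higher for 7.84%. The members' own sum, lowest in DTx 5A and 6A, is the denominator of these ratios, so that share is no like-for-like background for the members. Ugt8a stood at 5.86 and 4.06 counts per 1000 counts of the other members in saline and at 4.05, 3.43 and 2.81 in DTx 5A, 6A and 7A. The gap between saline replicate 2 and DTx 5A was therefore small beside the gap within saline. Mbp, from 47.7% of the members' counts in saline replicate 1 to 54.6% in DTx 7A, is part of the denominator for every other member. The non-overlap of these 9 members and the standing of saline replicate 1 can therefore also reflect the Mbp share. The ratios were not computed without Mbp and have no test.

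Saline replicate 1 stood apart in this composition. Myrf gave 3.39 counts per 1000 of the other members there, against 1.30 to 1.74 in the other 4 libraries. Cntn2 gave 6.04 against 2.37 to 3.27, and Trf 129 against 65.2 to 87.6. Mobp ran the other way, with 87.1 in saline replicate 1 and 116 to 137 elsewhere, and Mbp was also lowest there, at 914 against 964 to 1201. Nkx6-2 gave 1.85 in DTx 6A and 0.650 in saline replicate 2. The most even members were Tspan2, Mal, Tppp and Cnp, whose highest library was 1.12, 1.13, 1.13 and 1.15 times the lowest.

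**Figure D4:**
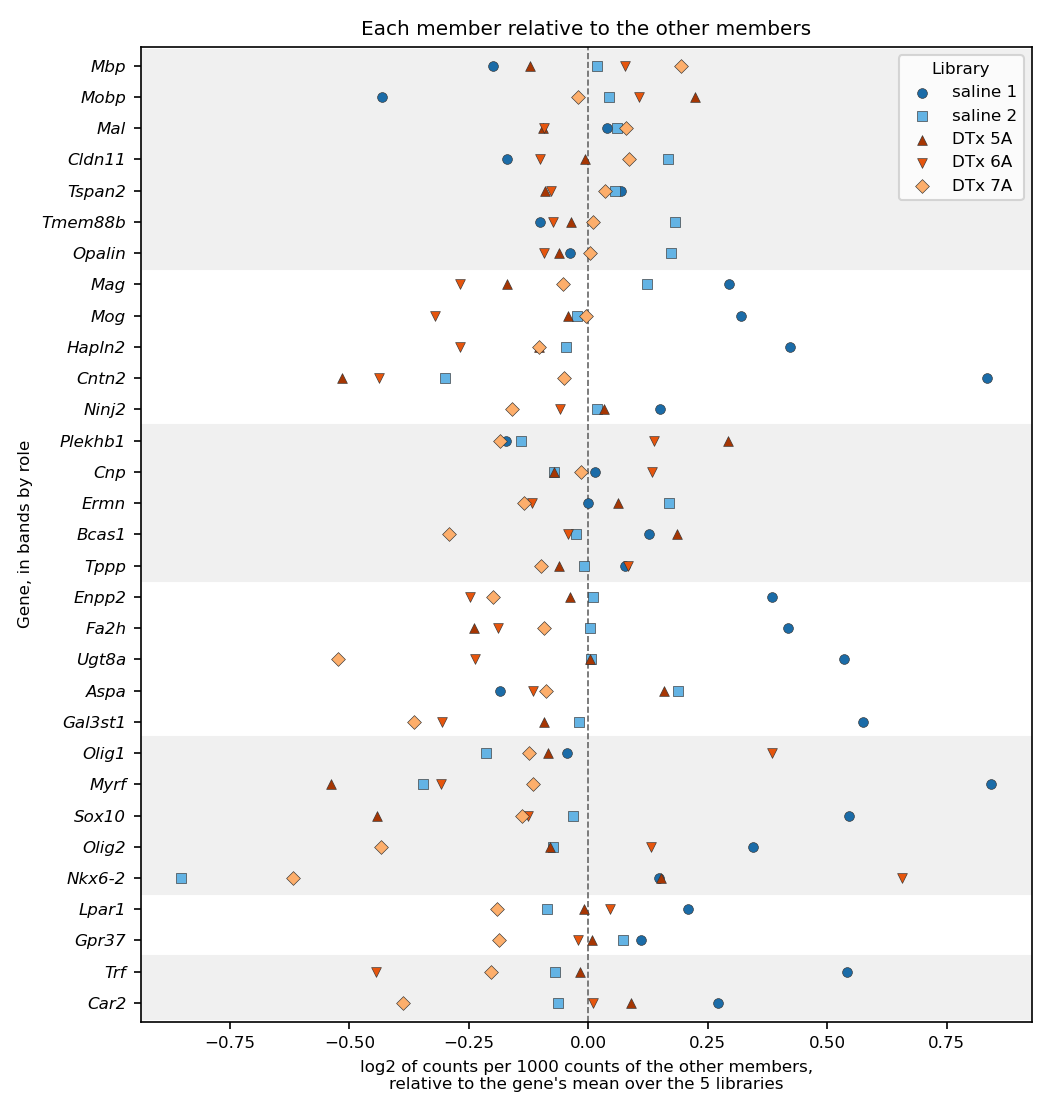
Counts of each member per 1000 counts of the other 30, on the log2 scale relative to the gene's mean over the 5 libraries, with genes in bands by role. Saline replicate 1 lies highest for 17 genes, including Myrf, Cntn2 and Trf, and lowest for Mobp, Mbp, Cldn11, Tmem88b and Aspa.

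Apart from the library levels, the members' promoters were searched for short motifs of factors of this lineage. Promoter letters were read from the reference genome, so they cannot bear on differences between the libraries. RefSeq windows on GRCm38.p6, from 250 bases before to 50 bases after a start, were found for 22 members in 30 windows. The SOX letters ACAATG or ACAAAG, on either strand, were in 50% of the members' windows and 28.6% of all 32851 windows. The MYRF letters CTGGCAC or CTGGTAC were in 23.3% and 7.10%, and the E-box CAGCTG, a palindrome bound by OLIG2 and other factors, in 13.3% and 16.3%. No motif contains another. Windows of the same gene overlap for Mag, Lpar1 and Gal3st1, and the same matches of Mag and Gal3st1 are counted in both of their overlapping windows. A match is a description of letters and not a binding site. SOX and MYRF letters stood together in 1 window for Mag, Cnp, Hapln2 and Opalin, and a window of each is printed here. A further Mag window that overlaps the printed one holds the same matches, and Lpar1 holds SOX and MYRF letters in different windows. The fifth printed window, of Mobp, holds CTTTGT, the reverse complement of ACAAAG, 6 times. They are written 5′ to 3′ on the gene's strand, with motif letters in capitals.
Mag: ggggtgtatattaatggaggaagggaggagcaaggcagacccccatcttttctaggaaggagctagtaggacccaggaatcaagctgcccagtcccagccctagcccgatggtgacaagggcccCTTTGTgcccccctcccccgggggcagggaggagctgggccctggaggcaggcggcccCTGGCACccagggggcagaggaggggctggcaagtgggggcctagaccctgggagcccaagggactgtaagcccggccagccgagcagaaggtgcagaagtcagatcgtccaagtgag
Cnp: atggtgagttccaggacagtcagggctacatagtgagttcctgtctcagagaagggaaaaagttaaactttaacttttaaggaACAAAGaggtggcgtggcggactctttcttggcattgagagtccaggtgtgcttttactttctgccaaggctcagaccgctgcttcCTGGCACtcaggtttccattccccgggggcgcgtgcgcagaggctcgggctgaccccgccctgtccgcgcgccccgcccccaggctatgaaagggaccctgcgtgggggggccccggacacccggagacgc
Hapln2: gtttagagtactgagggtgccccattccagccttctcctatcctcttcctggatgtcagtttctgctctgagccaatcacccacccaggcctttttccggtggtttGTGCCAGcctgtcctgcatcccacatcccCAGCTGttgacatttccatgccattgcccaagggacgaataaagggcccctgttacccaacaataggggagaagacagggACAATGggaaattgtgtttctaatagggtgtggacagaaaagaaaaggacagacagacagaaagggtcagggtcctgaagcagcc
Opalin: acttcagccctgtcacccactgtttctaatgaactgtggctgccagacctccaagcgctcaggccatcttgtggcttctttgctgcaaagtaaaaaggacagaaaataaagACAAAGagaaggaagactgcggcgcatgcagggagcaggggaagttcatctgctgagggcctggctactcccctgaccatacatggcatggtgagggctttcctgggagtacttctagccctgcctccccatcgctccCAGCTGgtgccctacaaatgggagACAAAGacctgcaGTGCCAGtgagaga
Mobp: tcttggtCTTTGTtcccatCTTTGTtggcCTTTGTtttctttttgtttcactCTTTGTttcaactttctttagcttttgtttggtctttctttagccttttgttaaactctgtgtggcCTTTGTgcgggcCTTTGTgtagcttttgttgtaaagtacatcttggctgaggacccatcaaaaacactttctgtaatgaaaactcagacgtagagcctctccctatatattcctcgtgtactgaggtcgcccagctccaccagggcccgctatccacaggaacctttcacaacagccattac

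In GRCm38.p6 the windows lie at chr7:30914814-30915113 for Mag (minus strand), chr11:100574689-100574988 for Cnp (plus strand), chr3:88027462-88027761 for Hapln2 (minus strand), chr19:41077064-41077363 for Opalin (minus strand) and chr9:120149492-120149791 for Mobp (plus strand). In Mag the MYRF letters start 68 bases and the SOX letters 126 bases before the start, and in Cnp they start 81 and 167 bases before it. In Hapln2 the SOX letters start 35, the E-box 115 and the MYRF letters 144 bases before the start. In Opalin 1 of the 2 SOX matches starts 139 bases before the start and the E-box 1 base before it. Ugt8a and Cldn11 held none of the letters in their windows.

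Other genes of mature oligodendrocytes, from a list of 44 in the table that shares no gene with the members, were compared in the same fit. Of 43 tested, 0 passed edgeR, 40 had log2 fold changes below 0, against 49.7% of all genes tested, and the median was -0.50. DTx 5A and 6A were the lowest libraries for 37 of 44, against 17.7% of all genes tested. The groups did not overlap with DTx lower for 5 of the 43 and with DTx higher for 0, against 9% and 12.1% of all genes tested. Qdpr, a pteridine reductase, stood at 2206 and 2705 CPM under saline and 1451, 1448 and 2449 CPM under DTx. The smallest p in the list belonged to Mcam, an adhesion molecule, at 26.1 and 32.9 CPM under saline and 14.6, 14.5 and 21.2 CPM under DTx, and to Ppp1r14a, a phosphatase inhibitor, at 126 and 154 CPM and at 72.8, 62.5 and 113 CPM. Both had no overlap between groups and adjusted p of 0.778 and 0.789.

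Markers of earlier stages of the lineage were also measured. The 10 precursor markers summed to 771 and 856 CPM under saline and 798, 917 and 799.9 CPM under DTx, with a median log2 fold change of -0.03, 5 below and 5 above 0, and 0 of 10 called. Pdgfra, the growth factor receptor of precursors, stood at 29.9 and 46.9 CPM under saline and 30.8, 44.9 and 50.5 CPM under DTx. Ptprz1, which gave most of this sum and is also made by astrocytes, stood at 675 and 747 CPM under saline and 714, 812 and 663 CPM under DTx. The smallest p in the list belonged to Vcan, a matrix proteoglycan, with a log2 fold change of 0.48, and C1ql1, a secreted C1q-like protein, with -1.20, at unadjusted p of 0.0721 and 0.0998 in edgeR. Differentiating cells, with 12 markers, had a median of -0.30, with 0 of 11 called, 8 below and 3 above 0, and a range from -0.88 for Nfasc to 0.69 for Sema4f. The groups did not overlap for 3 of the 11, Nfasc, Mpzl1 and Rras2, all lower in DTx. Over all genes tested, the groups did not overlap with DTx lower for 9% and with DTx higher for 12.1%. Nfasc, an adhesion protein of the node that neurons also make, stood at 328 and 267 CPM under saline and 109.9, 120.2 and 256 CPM under DTx. Tcf7l2, a transcription factor of the Wnt pathway, stood at 266 and 164 CPM under saline and 176, 199.7 and 153 CPM under DTx, with overlap. Mpzl1, a cell surface receptor, stood at 77.5 and 64.1 CPM under saline and 54.6, 54.3 and 49.5 CPM under DTx. Of 15 regulators of oligodendrocyte transcription 0 were called, with a median of -0.18, 12 below and 3 above 0, and a range from -0.57 for St18 to 0.25 for Sox6. The most abundant were Id2, an inhibitor of differentiation, and Tcf4, a partner of the OLIG factors, with log2 fold changes of 0.06 and -0.08. St18, a zinc finger factor, stood at 62.0 and 90.0 CPM under saline and 43.2, 40.3 and 70.1 CPM under DTx, with overlap. Tmem98, a membrane protein that binds MYRF and the 1 gene of this list whose groups did not overlap, stood at 79.4 and 91.5 CPM under saline and 56.9, 57.2 and 76.0 CPM under DTx. Of 18 genes of lipid synthesis, turnover and storage, which astrocytes also use, 0 were called. The median was -0.09, with 12 below and 6 above 0. Scd2, a fatty acid desaturase, and Psap, the saposin precursor, were the most abundant, with log2 fold changes of 0.10 and 0.19. Elovl7, a fatty acid elongase, had a log2 fold change of -0.54, with an unadjusted p of 0.175 in edgeR. DTx 5A and 6A were the lowest libraries for 4 of the 10 precursor markers and 3 of the 12 markers of differentiating cells. They were lowest for 6 of the 15 regulators and 6 of the 18 lipid genes, against 17.7% of all genes tested.

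**Figure D5:**
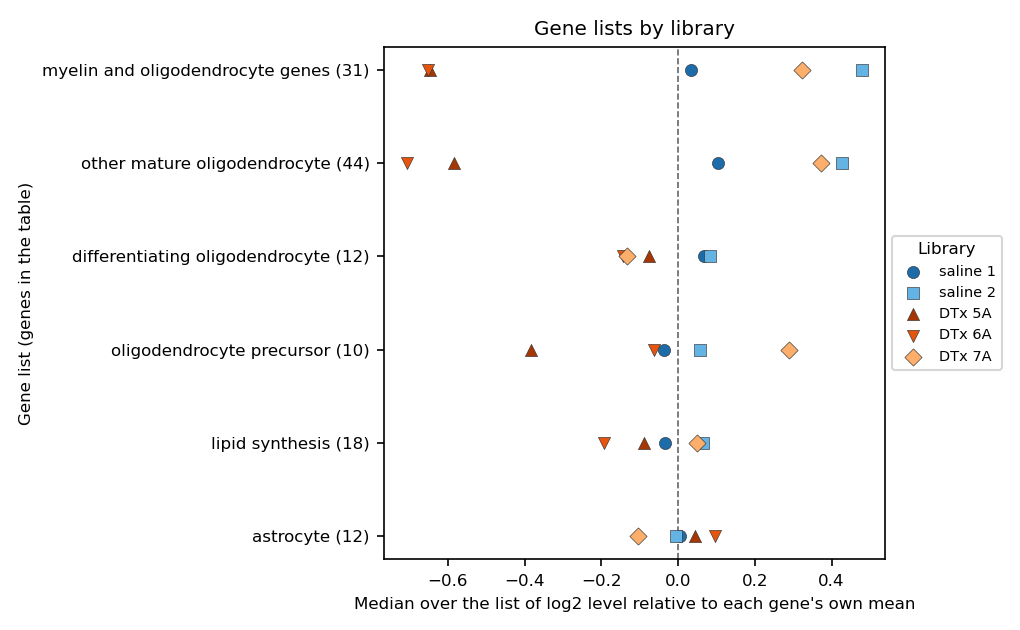
Median over each gene list of the log2 level relative to each gene's own mean, by library, with the number of genes in the table in brackets. The list labelled lipid synthesis also holds genes of lipid turnover and storage, such as Psap. The members and the other mature oligodendrocyte genes lie between -0.71 and -0.58 in DTx 5A and 6A, while the astrocyte list lies between -0.10 and 0.10.

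Astrocyte markers were present throughout. The 12 genes summed to 26775 and 28234 CPM under saline and 28463, 31424 and 26309 CPM under DTx, and 0 were called, with 7 log2 fold changes below and 5 above 0. Aqp4, the water channel gene, stood at 775 and 892 CPM under saline and 637, 586 and 770.03 CPM under DTx, and Atp1b2 at 5470 and 5675 CPM and at 4323, 4933 and 4746 CPM, both lower in DTx without overlap and with edgeR adjusted p of 0.803 and 0.817. Slc1a3, a glutamate transporter gene chosen after its values were seen, stood at 4019 and 5229 CPM under DTx 5A and 6A. In the other libraries it stood at 1669 to 2343 CPM (log2 fold change 0.91, edgeR adjusted p = 0.797). That was the largest log2 fold change of the 12 genes, whose median was -0.01. Slc1a3 is part of the sums given above. Microglia markers, all 10 with log2 fold changes above 0, summed to 102 and 252 CPM under saline and 423, 307 and 249.9 CPM under DTx 5A, 6A and 7A. Neuron markers summed to 320.0 to 359.5 CPM under saline and 389 to 487 CPM under DTx. Ependymal markers summed to 241 CPM in saline replicate 1, 146 CPM under DTx 5A and 25.1 to 35.8 CPM in the other 3. Their part in the members' differences was not tested.

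Markers of choroid plexus, Schwann cells, and fibroblasts and arachnoid were summed in the same way. Of 8 choroid plexus markers none was at 0 in every library. Ttr, the most abundant transcript of that tissue, stood at 0.114 to 0.692 CPM. Trf stood at 2762 CPM or more and Enpp2 at 796 CPM or more. Whether any of these tissues gave reads of the members was not tested. The list summed to 25.7 to 37.6 CPM under saline and 28.0 to 104 CPM under DTx. Clic6 gave most of it under DTx 5A and 6A, at 67.7 and 92.6 CPM, and Otx2 gave more than Clic6 under saline, at 19.7 and 13.8 CPM against 9.32 and 8.29 CPM. The 6 Schwann cell markers summed to 5.34 to 9.34 CPM. The 6 fibroblast and arachnoid markers summed to 29.8 to 49.6 CPM.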

How the data were processed

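RNA of ACSA-2-selected amygdala cells was sequenced. The authors deposited 1 table of raw read counts per gene symbol, with a column for each library. The submitters' processing notes name STAR 2.7.5c and featureCounts 2.0.1, with fastp 0.23.2 among the other tools, and give GRCm38 and mm10 as builds. The labels state no settings, annotation or strand. Saline columns were matched by group word and number to replicates 1 and 2. The DTx columns, whose numbers match no label, were used as members of their group. Another column, 1 in all, is named as a control but matches none of the labelled samples, and was left out of every step.

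All genes were fitted with edgeR 4.0.16 in R 4.3.3 (TMM, filterByExpr with a minimum count of 10, robust quasi-likelihood F test, Benjamini-Hochberg over 15532 genes, threshold 0.05). The fit was tested on simulated data. Levels are TMM-scaled CPM, given as mean ± SD. Each SE is the fold change divided by the square root of F. Exon lengths are merged GENCODE M21 exons. As alternatives the fit was repeated with no scaling beyond the total count, with RLE or with upper quartiles, without a filter or with at least 1 CPM in 2 libraries, in DESeq2 1.42.0 and limma-voom (limma 3.58.1), and with each library left out. Every pair of libraries differed by more than sampling noise.

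Members and lists were chosen with earlier results of these data known. In each role the 2 members with the highest mean and the 2 with the smallest p were given in every library, and the others by range. The same rule chose genes of the oligodendrocyte lists, except that 2 genes it picks are not reported here. For lists of cell types outside the lineage sums were given, with genes chosen after their values were seen.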

Additional observations from a re-analysis of the deposited data

How the results depend on the processing

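No member was called in edgeR under any of the scalings, filters or left-out libraries tried, nor by limma-voom, and DESeq2 called 1, Ugt8a, at a log2 fold change of -0.92. Over all genes 5 were called, against 9 with no low-count filter, 111 with DESeq2 and 5 to 13 with a library left out, with 13 without DTx library 7A. The members' median log2 fold change of -0.52 ran from -0.91 (without DTx 7A) to -0.25 (without saline replicate 2), and was -0.56 to -0.51 under the alternatives that kept all libraries. Of 372 single-gene values under 12 alternatives, 356 kept their direction and their side of the threshold. Without saline replicate 2 the sign turned for Mbp (0.11), Mobp (0.43), Cldn11 (0.16), Tmem88b (0.0496), Plekhb1 (0.16), Aspa (0.13), Olig1 (0.0474) and Nkx6-2 (-0.18). With a library left out, Mbp ran from -0.76 to 0.11, Mobp from -0.61 to 0.43, Cldn11 from -0.88 to 0.16, Tmem88b from -0.91 to 0.05, Plekhb1 from -0.48 to 0.16, Aspa from -0.86 to 0.13, Olig1 from -0.47 to 0.05 (0.03 without DTx 5A) and Nkx6-2 from -0.18 to 0.21 (-0.15 without DTx 6A). Nkx6-2 also turned with RLE (-0.0044), total-count scaling (-0.00065), no filter (-0.0084), DESeq2 (-0.0044) and limma-voom (-0.00033). The cause was not tested. With saline replicate 1 or 2 left out, the lone saline library is assumed to vary like the DTx libraries. Summed member levels moved by less than the spread within groups under each scaling. No paired analysis was possible because the DTx columns carry none of the replicate numbers of the labels. With 2 saline libraries, the number of libraries and not the depth limits precision for genes of this abundance.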
